A study of Homo sapiens with 2 samples.

Results

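The HOX cluster genes are the homeobox transcription factor genes that sit side by side in 4 clusters, HOXA, HOXB, HOXC and HOXD. The members were the protein-coding rows of the deposited expression table whose symbol is HOXA, HOXB, HOXC or HOXD followed by a number, which gave 39 of the 60880 rows. They were described by cluster and by position within the cluster, as a record of the identity of the cells. The rule uses symbols and no measured value, although it was set with earlier results of these data known. The cells were SUM-159, an established human triple-negative breast cancer line. One library came from SUM-159 cells labelled PD-L1L2-SE deficient and 1 library from SUM-159 cells labelled sgVector, and polyA RNA was sequenced in both. PD-L1L2-SE is, by the title of the study, a tumour-specific super-enhancer tied to PD-L1 and PD-L2. No drug, time or dose is given for either library. The sources used here do not say whether the deficient cells were 1 clone or a pool. With 1 library per group no difference has a replicate check, and no test was made.

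HOX proteins bind DNA through the homeodomain, a fold encoded by the homeobox, mostly together with cofactors of the PBX and MEIS families. Within a cluster the genes are used in embryos in the order in which they lie on the chromosome, from low-numbered genes at head levels to high-numbered genes at tail and limb levels. Genes of the same number in different clusters are copies of 1 ancestral gene and are called a paralogue group. Differentiated cells and cell lines keep a pattern of active and silent HOX genes, held by Polycomb proteins on silent genes and Trithorax or MLL proteins on active ones. The pattern is therefore read as a positional label of a cell.

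Levels are in RPKM, reads per kilobase of exon per 1000000 reads on genes, which is per length and so can be set side by side between genes. The steps of the RPKM values gave back whole reads, 16381546 on genes in deficient cells and 16206675 in sgVector cells. A ratio is the gene's share of reads in deficient cells over its share in sgVector cells, with a 95% Clopper-Pearson interval that covers counting error only. A log2 ratio was taken after adding 0.1 RPKM to both values, which understates the change of low genes. CD274, the gene of PD-L1, had 0.698 RPKM in deficient cells and 7.16 RPKM in sgVector cells, and PDCD1LG2, the gene of PD-L2, had 1.19 RPKM in deficient cells and 5.32 RPKM in sgVector cells. The line's mesenchymal character was visible in both libraries, with all 6 mesenchymal markers at a mean of at least 1 RPKM and none of the 5 epithelial markers, which had 23 reads in all in deficient cells and 30 in sgVector cells. The epithelial cadherin gene CDH1 had 0 reads in deficient cells and 1 read in sgVector cells. The mesenchymal markers had log2 ratios below 0 for 3 genes and above 0 for 3, with a median of -0.01. They ran from VIM, the mesenchymal filament gene, with 390 RPKM in deficient cells and 746 RPKM in sgVector cells, to FN1, the fibronectin gene, with 297 RPKM in deficient cells and 229 RPKM in sgVector cells. Of the other cell types' markers, the T-cell gene CD3E had no read, the 2 endothelial markers found had 4 reads in deficient cells and 7 in sgVector cells, and the monocyte gene CD14 had 476 reads in deficient cells and 337 in sgVector cells. Of the 5 luminal breast markers 3 were past the mean of 1 RPKM, with a median log2 ratio of -0.27. ERBB2 had 1690 reads in deficient cells and 1175 in sgVector cells, GATA3 had 48 in deficient cells and 77 in sgVector cells, and FOXA1 had 71 in deficient cells and 86 in sgVector cells. The part of these markers in the HOX results was not tested.

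The HOX pattern of SUM-159 was dominated by the HOXC cluster in both libraries, and by HOXC10 within it. Counting a gene as on at 1 RPKM or more, 16 members were on in deficient cells and 12 in sgVector cells, and all 12 were on in both. The 12 included HOXA3, HOXA5, HOXB7, HOXD8 and the HOXC genes HOXC4, HOXC6, HOXC8, HOXC9, HOXC10, HOXC11 and HOXC13. The 4 genes on in deficient cells alone were HOXA2, HOXA4, HOXA9 and HOXA10, which lay between 1.05 and 1.47 RPKM in deficient cells and between 0.699 and 0.883 RPKM in sgVector cells, so both libraries put them near the limit. The share of all protein-coding genes that cross this limit between the libraries was not counted, so the 2 counts have no background beside them. Per exon base that no other row covers, HOXA4 had 1.99 RPKM in deficient cells and 1.67 RPKM in sgVector cells, and HOXA9 had 1.74 RPKM in deficient cells and 1.17 RPKM in sgVector cells. On that scale both were on in both libraries, and 16 members were on in deficient cells and 14 in sgVector cells. Another 8 members had no read in either library, HOXA7, HOXB1, HOXB8, HOXC12, HOXD3, HOXD4, HOXD12 and HOXD13. A count of 0 allows up to 3 reads, which is 0.183 reads per 1000000 in deficient cells and 0.185 in sgVector cells. Across the 39 members, which include the 8 without reads, log2 levels in the 2 libraries correlated with a Pearson r of 0.98 and a Spearman rho of 0.89. For the 14 members with a mean of at least 1 RPKM they were 0.922 and 0.842. For the 10576 protein-coding genes with such a mean they were 0.955 and 0.957. A correlation depends on how widely levels spread, so these values cannot say which set was more alike between the libraries. These values are a description across genes that share the same 2 libraries.

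**Figure D1:**
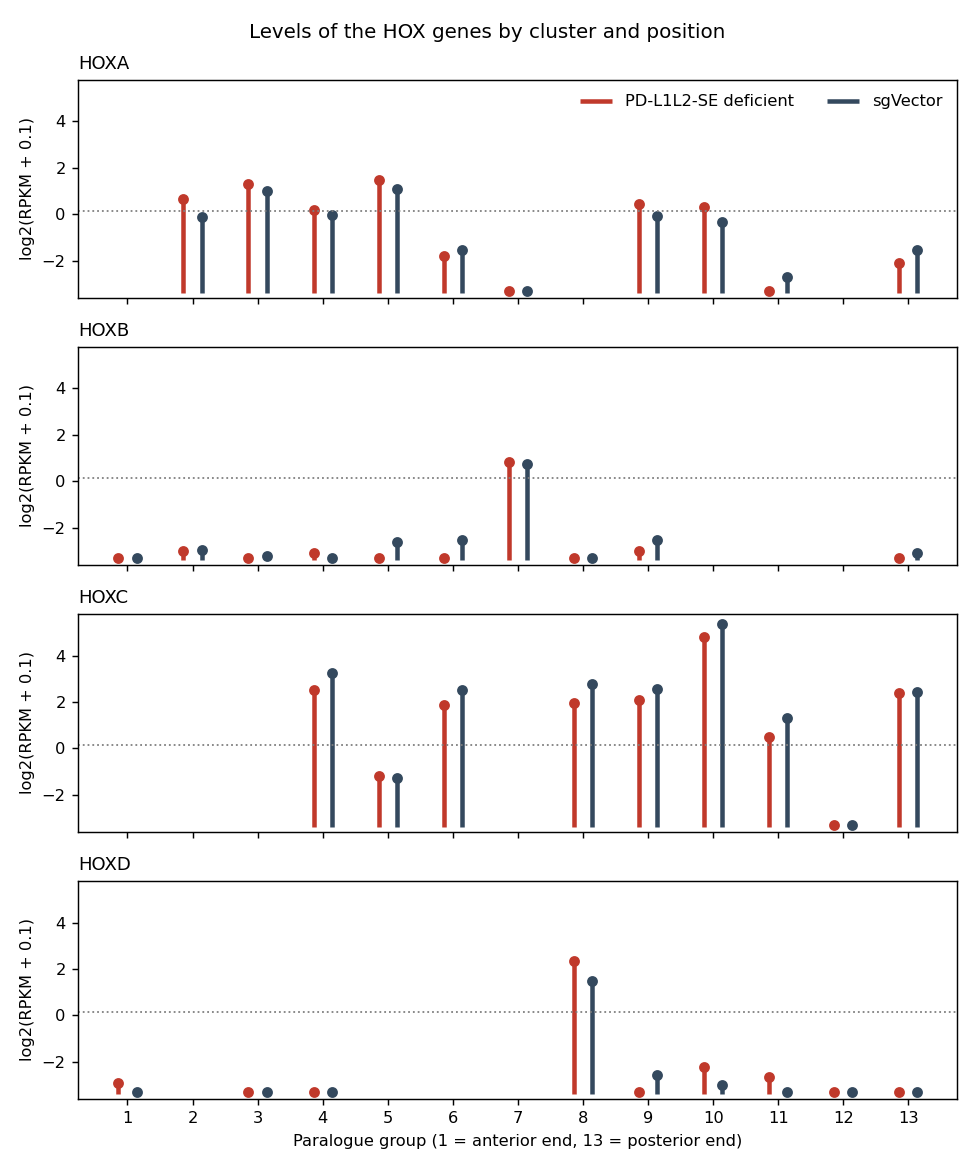
Levels of the HOX genes by cluster (panels) and paralogue group (x axis), as log2(RPKM + 0.1), with the point and stem of deficient cells left of those of sgVector cells and the dotted line at 1 RPKM. HOXC10 stands highest in both libraries, from 27.4 RPKM (deficient) and 41.1 RPKM (sgVector), and most HOXB and HOXD genes lie far below the line.

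With the mean of both libraries at 1 RPKM or more as the floor, 14 of the 39 members were measured well enough for a ratio to be counted. None of the 14 was higher in deficient cells by 2-fold or more, against 2.1% of the 10576 protein-coding genes past the floor, and none was 2-fold lower or more, against 2.07%. The counts at 2-fold are near the background. Log2 ratios were below 0 for 8 of the 14, against 53.6% of protein-coding genes, and their median was -0.20, against -0.03 for all protein-coding genes. At a floor of 0.5 RPKM the median of the members was 0.02, so its sign depends on the floor. The members parted by cluster. The interval of the ratio lay wholly below 1 for 6 members, all of them HOXC genes, against 35.4% of protein-coding genes. It lay wholly above 1 for 2 members, HOXA2 and HOXD8, against 30% of protein-coding genes. HOXA2, at 0.828 RPKM in sgVector cells, passed the floor only through the deficient library, where it was higher. So did HOXA9, at 0.856 RPKM in sgVector cells. Counting either as higher therefore draws in part on the floor. In bulk RNA, fewer cells that express a gene and less RNA per cell cannot be told apart.

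**Figure D2:**
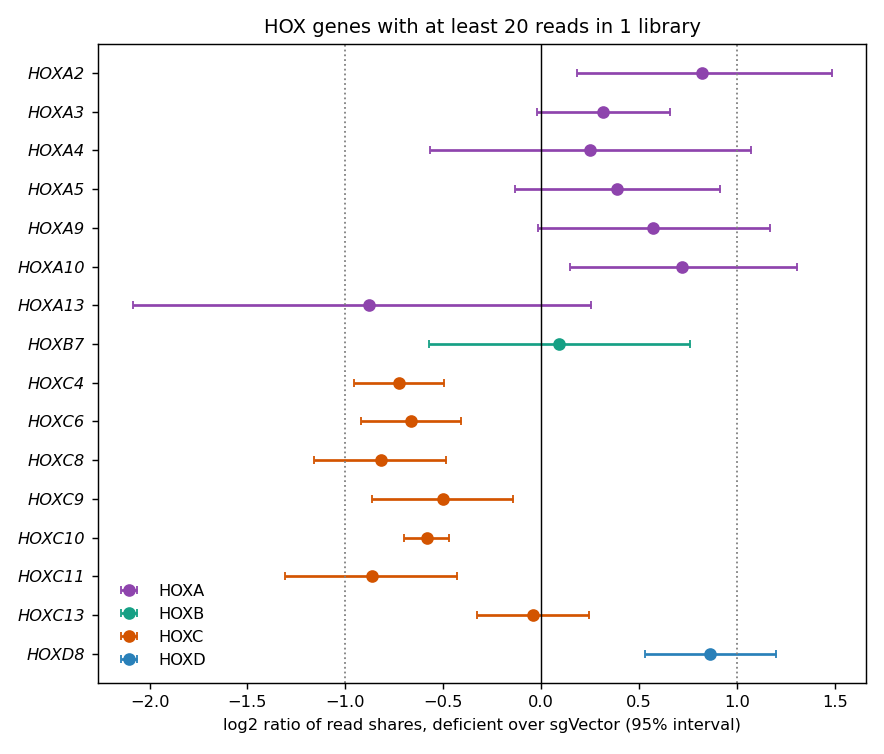
Log2 ratio of read shares, deficient over sgVector, with its 95% interval for 16 HOX genes with at least 20 reads in 1 library, coloured by cluster. Solid and dotted vertical lines mark no difference and 2-fold, and 6 of the 7 HOXC genes lie wholly left of 0 while HOXA2, HOXA10 and HOXD8 lie wholly right of it.

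HOXC genes were lower in deficient cells, by amounts that were much alike from one end of the cluster to near the other. The cluster lies on chromosome 12 from 54332549 to 54449814 in hg19 and its 9 members held 2020 reads in deficient cells and 2995 in sgVector cells, a ratio of 0.667 (0.630 to 0.706). HOXC10, known from mice for lumbar motor neurons and the hindlimb level, was the highest HOX gene of both libraries, with 27.4 RPKM from 1046 reads in deficient cells and 41.1 RPKM from 1551 reads in sgVector cells. Its ratio was 0.667 (0.616 to 0.722). Without HOXC10 the cluster's ratio was also 0.667 (0.615 to 0.724), so the value did not rest on that gene.

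The central HOXC genes had lower levels than HOXC10 and similar ratios. HOXC4, at the low-numbered end of the cluster, had 5.65 RPKM in deficient cells and 9.33 RPKM in sgVector cells, a ratio of 0.605 (0.515 to 0.710). HOXC6 had 3.59 RPKM in deficient cells and 5.68 RPKM in sgVector cells, a ratio of 0.631 (0.528 to 0.753). HOXC8, known from mice for ribs and forelimb motor neurons, had 3.81 RPKM in deficient cells and 6.73 RPKM in sgVector cells, a ratio of 0.567 (0.448 to 0.714). The intervals of these 3 genes overlap one another and that of HOXC10, so their ratios are not told apart by the counts. HOXC5 had 10 reads in deficient cells and 9 in sgVector cells, too few for a direction.

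At the high-numbered end the HOXC genes were not alike. HOXC9, which in mice sets the thoracic identity of motor neurons, had 4.07 RPKM in deficient cells and 5.77 RPKM in sgVector cells, a ratio of 0.706 (0.549 to 0.905). HOXC11 had 1.31 RPKM in deficient cells and 2.38 RPKM in sgVector cells, a ratio of 0.550 (0.404 to 0.742). HOXC13, which is required for hair and nails, had 5.14 RPKM in deficient cells and 5.30 RPKM in sgVector cells, a ratio of 0.970 (0.796 to 1.18). HOXC13 is the outermost gene of the cluster, and HOXC12, its neighbour, had no read in either library although no other row shares its exons. Within each library HOXC13 had 0.195 reads per HOXC10 read in deficient cells and 0.134 in sgVector cells, a ratio of the ratios of 1.45 (1.17 to 1.80) that does not depend on how the libraries are scaled. HOXC11 reads per HOXC13 read were 0.343 in deficient cells and 0.606 in sgVector cells, a ratio of the ratios of 0.567 (0.392 to 0.815). HOXC11 and HOXC13 had the lowest and the highest ratio of the HOXC genes past the floor. Neither pair was planned beforehand, so both intervals restate the single ratios and are no separate support.

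Other genes of chromosome 12 were also lower in deficient cells. Over the 564 protein-coding genes of the chromosome past the floor that are not HOX genes, the median log2 ratio was -0.29, with quartiles of -0.52 and -0.06, and 80.5% lay below 0. The interval lay wholly below 1 for 64.4% of them. The 6 lower HOXC genes had log2 ratios of -0.49 to -0.82, and HOXC9 alone of them lay above the chromosome's lower quartile. The medians of the other HOX chromosomes were -0.08 on chromosome 7, -0.04 on chromosome 17 and -0.01 on chromosome 2. Of the 10 nearest protein-coding genes past the floor around HOXC, 5 on each side, 8 had a log2 ratio below 0, with a median of -0.31. They ran from -0.58 for COPZ1, a coat protein gene, to 0.73 for NFE2, a blood transcription factor gene, and the farthest lay 439 kilobases away. A lower HOXC level and a lower level along the chromosome cannot be told apart in 1 pair of libraries.

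**Figure D3:**
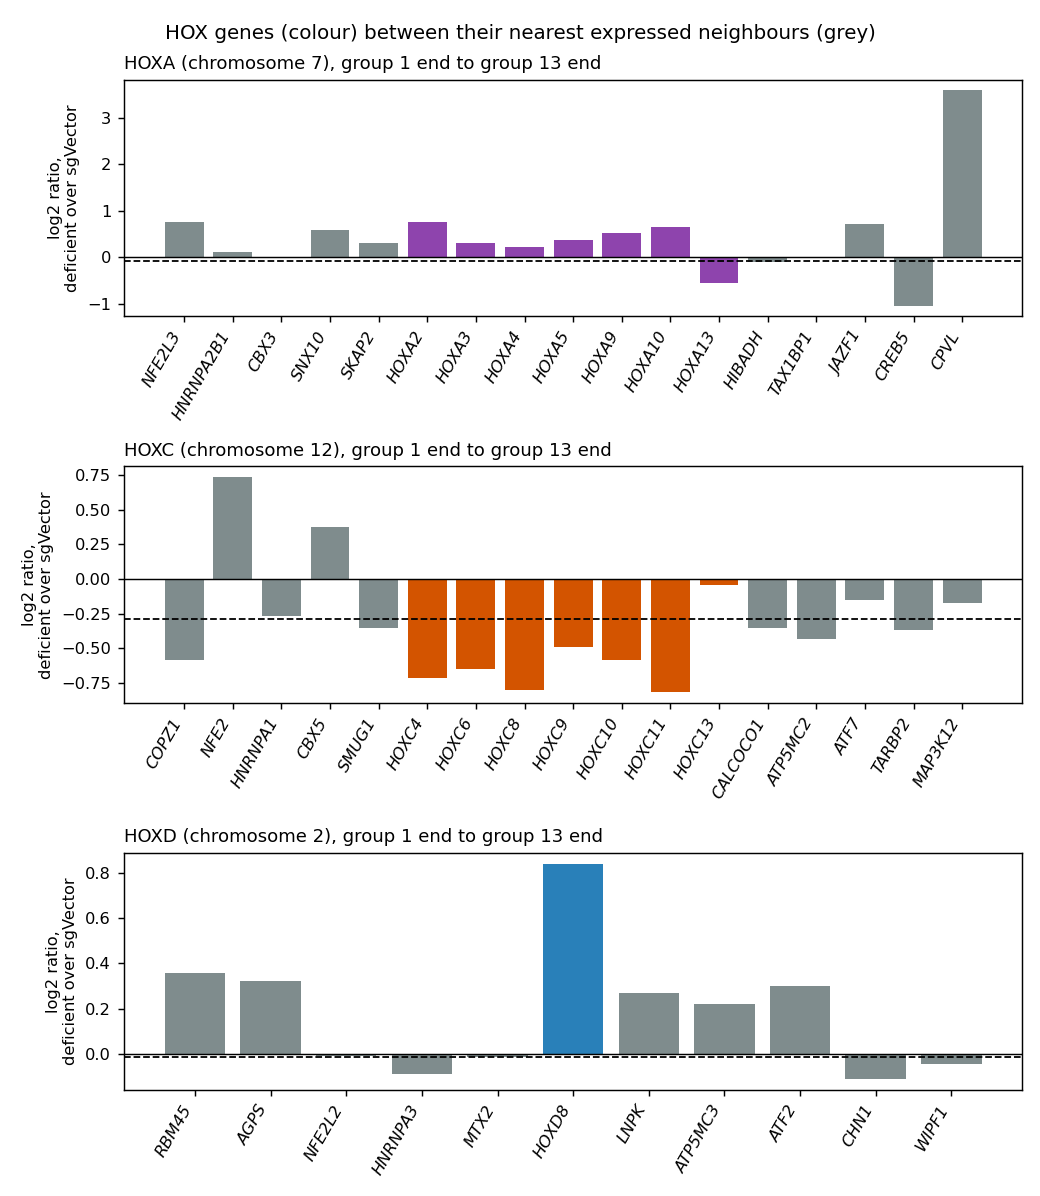
Log2 ratios, deficient over sgVector, of HOX genes with at least 20 reads in 1 library (colour) and of the 5 nearest protein-coding genes past the floor on each side (grey), for HOXA, HOXC and HOXD from the group 1 end to the group 13 end, with the median of the chromosome as a dashed line. Around HOXC the neighbours have a median of -0.31 and the dashed line lies at -0.29, while the HOXC genes other than HOXC13 lie at -0.49 to -0.82.

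HOXA genes were low in both libraries, and from HOXA2 to HOXA10 each gene with reads enough to count was higher in deficient cells. The cluster lies on chromosome 7 and held 546 reads in deficient cells and 446 in sgVector cells, a ratio of 1.21 (1.07 to 1.38) and a log2 ratio of 0.28. Over the members that share under 10% of their exon bases with another row the log2 ratio was 0.089. The size of the sum thus depends on which members are kept. That set holds HOXA2 and HOXA5, which share no base and had more reads in deficient cells, and HOXA13, which had fewer. HOXA2, which in mice patterns the second branchial arch, had 1.47 RPKM from 59 reads in deficient cells and 0.828 RPKM from 33 reads in sgVector cells, a ratio of 1.77 (1.14 to 2.80). HOXA3, needed in mice for thymus and parathyroid, had 2.34 RPKM in deficient cells and 1.88 RPKM in sgVector cells, a ratio of 1.25 (0.985 to 1.58). HOXA5, known from mice for the lung, had 2.65 RPKM in deficient cells and 2.02 RPKM in sgVector cells, a ratio of 1.31 (0.911 to 1.88). The intervals of HOXA3 and HOXA5 reach across 1, and that of HOXA2 does not. HOXA3 lay wholly above 1 under TPM, TMM and upper-quartile scaling and after the correction for GC content and length, and HOXA5 after that correction alone.

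The posterior HOXA genes had similar ratios at about 1 RPKM. HOXA9, known for its part in acute leukaemia, had 1.27 RPKM from 63 reads in deficient cells and 0.856 RPKM from 42 reads in sgVector cells, a ratio of 1.48 (0.989 to 2.25). HOXA10, which acts in the lining of the uterus, had 1.15 RPKM from 70 reads in deficient cells and 0.699 RPKM from 42 reads in sgVector cells, a ratio of 1.65 (1.11 to 2.48). The mean of HOXA10 lay just below the floor, at 0.926 RPKM, and so did that of HOXA4, at 0.966 RPKM with a ratio of 1.19 (0.675 to 2.11). The interval of HOXA9 reaches across 1 and that of HOXA10 does not. HOXA9 lay wholly above 1 under the same 4 alternatives as HOXA3.

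At the high-numbered end of the HOXA cluster the reads were few. HOXA13, which shapes hands and feet, had 11 reads in deficient cells and 20 in sgVector cells, a ratio of 0.544 (0.235 to 1.19). HOXA6, a central gene, had 4 reads in deficient cells and 5 in sgVector cells, and HOXA11 had 0 reads in deficient cells and 2 in sgVector cells. The 6 genes HOXA2, HOXA3, HOXA4, HOXA5, HOXA9 and HOXA10 summed to 461 reads in deficient cells and 329 in sgVector cells, a ratio of 1.39 (1.20 to 1.602), and this set was chosen after its values were seen. Around HOXA the 10 nearest protein-coding genes past the floor had a median log2 ratio of 0.21, and the chromosome as a whole lay at -0.08. These neighbours ran from -1.04 for CREB5, 1099 kilobases away, to 3.58 for CPVL, 1795 kilobases away.

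HOXD was carried by 1 gene. HOXD8, a central member, had 4.95 RPKM from 213 reads in deficient cells and 2.72 RPKM from 116 reads in sgVector cells, a ratio of 1.82 (1.44 to 2.30), and its log2 ratio of 0.84 was the highest of the 14 members past the floor. The other 8 HOXD genes held 0 to 5 reads in each library. HOXD10 had the most of these, with 5 reads in deficient cells and 1 in sgVector cells. The cluster, on chromosome 2 from 176957619 to 177055635 in hg19, had 221 reads in deficient cells and 119 in sgVector cells, a ratio of 1.84 (1.46 to 2.32) that is in effect that of HOXD8. The 10 nearest protein-coding genes past the floor, up to 1922 kilobases away, had a median log2 ratio of 0.10, with none past 2-fold. HOXD8 was the richest in GC of the 14 members, at 58.7%. Protein-coding genes of its GC class, from 58.0% to 73.9%, had a median log2 ratio of -0.20, the lowest of the 5 classes. After a correction for GC content and length HOXD8 had a log2 ratio of 1.08, past 2-fold.

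HOXB was nearly silent apart from HOXB7. HOXB7, long studied in breast cancer cells, had 1.68 RPKM from 42 reads in deficient cells and 1.57 RPKM from 39 reads in sgVector cells, a ratio of 1.07 (0.672 to 1.69). The other 9 HOXB genes held 0 to 3 reads in each library, and the whole cluster held 45 reads in deficient cells and 50 in sgVector cells. The ratio of the cluster was 0.890 (0.582 to 1.36), so no difference was detectable at this depth. The cluster spans 46605888 to 46806540 on chromosome 17 in hg19.

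The balance between the clusters differed between the libraries. HOXC took 71.3% (69.6 to 73.0) of HOX reads in deficient cells and 83.0% (81.7 to 84.2) in sgVector cells. HOXA took 19.3% (17.8 to 20.8) in deficient cells and 12.4% (11.3 to 13.5) in sgVector cells, and HOXD took 7.80% (6.84 to 8.85) in deficient cells and 3.30% (2.74 to 3.93) in sgVector cells. The intervals of HOXA, HOXC and HOXD do not overlap between the libraries, whereas those of HOXB, at 1.59% in deficient cells and 1.39% in sgVector cells, do. All these intervals cover counting error only. Single-gene ratio intervals of that kind lay wholly below 1 for 35.4% of protein-coding genes past the floor and wholly above 1 for 30%. Shares are parts of 1 total, so a lower HOXC share by itself raises the others. HOXC also lies on chromosome 12, where other genes were lower as well. HOXA reads per HOXC read were 0.270 in deficient cells and 0.149 in sgVector cells, a ratio of the ratios of 1.81 (1.58 to 2.09). HOXD reads per HOXC read gave 2.75 (2.18 to 3.50) in the same way. These ratios of the ratios restate the ratios of the single clusters and are no separate support. All HOX genes together had 2832 reads in deficient cells and 3610 in sgVector cells, a ratio of 0.776 (0.739 to 0.815). Without HOXC the ratio was 1.31 (1.17 to 1.45), from 812 reads in deficient cells and 615 in sgVector cells, so the sign of the total was that of HOXC.

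**Figure D4:**
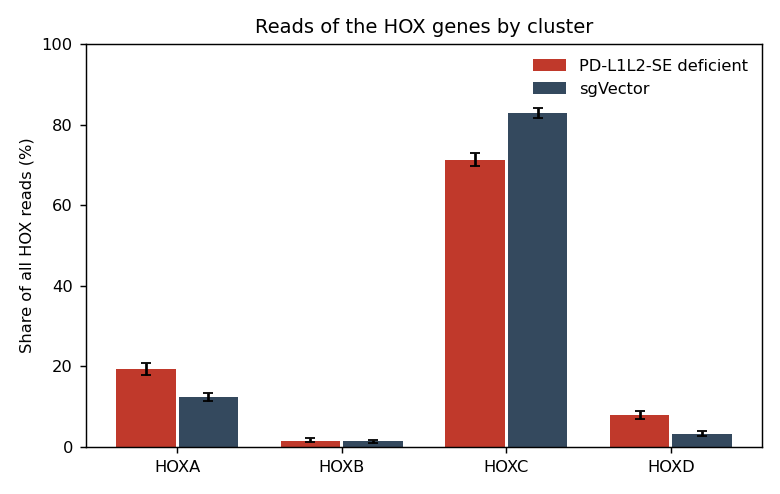
Share of all HOX reads held by each cluster, in percent, with the deficient library left of the sgVector library and 95% Clopper-Pearson intervals as bars. HOXC holds 71.3% (deficient) and 83.0% (sgVector), and HOXA and HOXD hold larger shares in deficient cells.

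By position along the body axis, posterior genes held most HOX reads in both libraries, because of HOXC10. Paralogue groups 9 to 13 had 1584 reads in deficient cells and 2155 in sgVector cells. Groups 4 to 8 had 952 reads in deficient cells and 1199 in sgVector cells, and groups 1 to 3 had 296 reads in deficient cells and 256 in sgVector cells. Most of the posterior reads were those of HOXC10, without which groups 9 to 13 had 538 reads in deficient cells and 604 in sgVector cells, fewer than groups 4 to 8, and a ratio of 0.881 (0.783 to 0.991). With HOXC10 the ratio was 0.727 (0.681 to 0.776) for the posterior groups, 0.786 (0.721 to 0.856) for the central groups and 1.14 (0.964 to 1.36) for the anterior groups. HOXC has no gene in groups 1 to 3, so zone and cluster are not separate here. Within HOXC the ratio was 0.610 (0.550 to 0.677) for the central genes and 0.694 (0.648 to 0.743) for the posterior genes. Within HOXA it was 1.15 (0.965 to 1.36) for the anterior, 1.24 (0.927 to 1.67) for the central and 1.34 (1.04 to 1.74) for the posterior genes. The central and the posterior ratios thus lay below 1 in HOXC and above 1 in HOXA, although the interval of the central HOXA genes reaches across 1.

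Genes of the same paralogue group were at very different levels although their DNA-binding parts are much alike. In group 10 the mean level was 34.2 RPKM for HOXC10, 0.926 RPKM for HOXA10 and 0.0682 RPKM for HOXD10. In group 8, HOXD8 led in deficient cells with 4.95 RPKM, against 3.81 RPKM for HOXC8, and HOXC8 led in sgVector cells with 6.73 RPKM, against 2.72 RPKM for HOXD8. HOXB8 had no read. This was the only one of the 12 groups with reads whose leading gene differed between the libraries. HOXD8 reads per HOXC8 read were 1.81 in deficient cells and 0.563 in sgVector cells, a ratio of the ratios of 3.20 (2.30 to 4.47). HOXA10 reads per HOXC10 read gave 2.47 (1.65 to 3.74). Each pair sets a member higher in deficient cells over a member lower in them. Their intervals therefore restate the single ratios and are no separate support.

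The homeoboxes of the 3 genes of group 10 are shown so that the likeness of the copies can be set beside their levels. Each is 180 bases of coding sequence, 5′ to 3′, taken from GENCODE release 29 transcripts, and the capitals mark the 24 bases that encode the stretch of the recognition helix that meets DNA.
HOXA10: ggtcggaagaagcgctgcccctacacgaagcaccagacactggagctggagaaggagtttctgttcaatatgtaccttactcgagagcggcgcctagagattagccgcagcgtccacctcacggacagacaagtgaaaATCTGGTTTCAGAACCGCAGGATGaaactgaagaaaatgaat
HOXC10: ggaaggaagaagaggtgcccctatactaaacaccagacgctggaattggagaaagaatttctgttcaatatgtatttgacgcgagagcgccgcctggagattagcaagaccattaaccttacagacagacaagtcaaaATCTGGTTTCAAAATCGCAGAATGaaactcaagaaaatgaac
HOXD10: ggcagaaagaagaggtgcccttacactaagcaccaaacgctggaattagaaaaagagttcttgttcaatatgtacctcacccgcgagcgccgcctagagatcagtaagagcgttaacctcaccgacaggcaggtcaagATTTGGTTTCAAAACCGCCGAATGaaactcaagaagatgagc
HOXA10 and HOXC10 were identical at 81.7% of these bases and HOXC10 and HOXD10 at 82.8%. Over all pairs of the 39 members, the median was 81.7% within a paralogue group (42 pairs) and 60.6% between groups (699 pairs). Between the longest protein-coding transcripts of members past the floor no exact run longer than 26 bases was shared (91 pairs). Over all their exons, however, HOXC4 and HOXC6 share 484 bases. The sources used here do not say how reads matching more than 1 place were treated.

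The RNA genes inside the clusters followed no single direction. HOTAIRM1, an antisense RNA of the HOXA cluster, was the most abundant, with 24.6 RPKM from 604 reads in deficient cells and 33.0 RPKM from 799 reads in sgVector cells, a ratio of 0.748 (0.672 to 0.832). HOTAIR, an antisense RNA of the HOXC cluster known for its reported binding to Polycomb proteins, had 1.20 RPKM from 51 reads in deficient cells and 2.04 RPKM from 86 reads in sgVector cells, a ratio of 0.587 (0.407 to 0.839). HAGLR, an antisense RNA of the HOXD cluster, had 0.860 RPKM from 72 reads in deficient cells and 0.471 RPKM from 39 reads in sgVector cells, a ratio of 1.83 (1.22 to 2.77). HOTAIR thus lay near the HOXC genes and HAGLR, whose mean was below the floor, near HOXD8. Other RNA genes of the HOXC cluster were mixed. HOXC-AS2 had 45 reads in deficient cells and 41 in sgVector cells, a ratio of 1.09 (0.695 to 1.70). HOXC-AS1 had a ratio of 0.815 (0.617 to 1.07), and the lincRNA ENSG00000260597 had 2.91 (1.68 to 5.28). The intervals of HOXC-AS1 and HOXC-AS2 overlap those of the 6 lower HOXC genes, and that of the lincRNA does not. HOXC-AS3 had 6 reads in deficient cells and 9 in sgVector cells, and HOXC13-AS had 3 and 5, too few for a direction. In all, 44 rows other than the members lie inside the cluster spans and 25 of them had no read in either library.

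Several HOX levels rest on only part of the gene's exons because of how overlapping genes were counted. Among 662 rows of the table whose exons lie wholly on exons of the opposite strand, 1 had any read (0.151%), against 44.4% of the 43450 rows that share no base. Counting therefore took no account of strand, and reads on shared exons were mostly left out. HOXD4 shares 80.5% of its exon bases with another row, HOXD3 74.1%, HOXA7 62.5%, HOXC5 59.9% and HOXD1 58.1%, so their levels of 0 to 0.338 RPKM can understate their expression. HOXA7, HOXD3 and HOXD4 also had no read on the 904, 920 and 286 exon bases, in that order, that no other row covers. Per such base HOXC5 stood at 0.843 RPKM in deficient cells and 0.767 RPKM in sgVector cells, still below 1 RPKM. HOXB1, HOXB8, HOXC12, HOXD12 and HOXD13 share no base with another row, and their lack of reads is not touched by the overlap. Among the members past the floor, HOXA9 shares 27.0% of its bases, and HOXA2, HOXA5, HOXB7, HOXC8, HOXC11 and HOXD8 share none. Leaving out of a gene's length the bases it shares moves its level but not its ratio. HOXC10 would then stand at 30.4 RPKM in deficient cells and 45.5 RPKM in sgVector cells.

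The promoter of HOXD8 is shown because this gene had the highest log2 ratio of the members past the floor. The table of promoter sequences held 20 of the 39 members. The window is the 250 bases before the RefSeq start of the gene, 5′ to 3′ on the plus strand, at chr2:176129455-176129704 on GRCh38.p14. All 20 windows were searched on both strands for 4 motifs, and matches may overlap. The TATA box was searched as TATAAA, the box of the NF-Y factor as CCAAT, the GC box as GGGCGG and the composite site of HOX and PBX proteins as TGATNNAT. Capitals would mark matches, and the HOXD8 window holds none.
HOXD8: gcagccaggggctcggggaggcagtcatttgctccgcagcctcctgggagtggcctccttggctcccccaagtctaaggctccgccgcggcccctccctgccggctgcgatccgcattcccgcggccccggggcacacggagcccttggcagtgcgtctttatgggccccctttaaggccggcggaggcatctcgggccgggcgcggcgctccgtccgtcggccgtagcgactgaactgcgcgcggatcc
The HOXA2 window holds 4 NF-Y box matches and 1 composite match, and the HOXC4 window holds 2 NF-Y box matches. In 8 of the 20 windows, that of HOXA2 among them, the last 30 bases lie in a GENCODE transcript of the same gene, so they reach into sequence that some transcripts include. The NF-Y box occurred in 17 of the 20 HOX promoters and in 33.0% of all 27305 promoters of the table. The TATA box occurred in 4 of the 20 and in 11.1% of all promoters, the GC box in 10 of the 20 and in 42.3%, and the composite site in 3 of the 20 and in 6.69%. The same window is listed for HOXC4 and HOXC5, so it enters these counts once for each gene. CpG sites numbered 8 in the HOXA2 window, 14 in that of HOXC4 and 28 in that of HOXD8, against a median of 11 over all promoters. A match describes letters and does not show that a factor binds there.

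Few genes that work with or on the HOX clusters reached 2-fold. The TALE cofactors, which include the PBX and MEIS proteins that bind DNA beside HOX proteins, had 10 of 11 members past the floor, none past 2-fold upward and 1 past it downward, with a median log2 ratio of -0.08. The lower one was PBX4, with 2.58 RPKM in deficient cells and 5.34 RPKM in sgVector cells, a log2 ratio of -1.02. Among the genes of Polycomb complexes, which silence HOX genes, all 33 were past the floor and none reached 2-fold either way, with a median of -0.12 and a range from -0.62 for MTF2 to 0.57 for ASXL2. Among 24 Trithorax and MLL genes past the floor, which keep HOX genes active, none reached 2-fold, with a median of -0.09 and a range from -0.68 for DOT1L to 0.71 for ASH1L. The interval of the ratio lay wholly below 1 for 4 and wholly above 1 for 2 of the 10 TALE cofactors, for 16 and 9 of the 33 Polycomb genes and for 11 and 9 of the 24 Trithorax and MLL genes. Against these, 35.4% of protein-coding genes lay wholly below 1 and 30% wholly above it, and 2.1% of protein-coding genes were past 2-fold upward and 2.07% downward.

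Upstream regulators and genes of retinoic acid, the signal that switches on low-numbered HOX genes, had 10 of 22 members past the floor, none past 2-fold upward and 1 past it downward. That was CRABP2, a carrier of retinoic acid, with 2.77 RPKM from 50 reads in deficient cells and 8.30 RPKM from 148 reads in sgVector cells, a log2 ratio of -1.55. The homeobox genes outside the clusters had 27 of 84 members past the floor, 2 past 2-fold upward and none downward, with a median of 0.03. IRX3 had 2.33 RPKM in deficient cells and 0.911 RPKM in sgVector cells, a log2 ratio of 1.26, and MSX2 had 3.23 RPKM in deficient cells and 1.20 RPKM in sgVector cells, a log2 ratio of 1.36. Their changes were larger than that of any HOX gene past the floor. The background was 2.1% of protein-coding genes past 2-fold upward and 2.07% downward. The interval of the ratio lay wholly below 1 for 6 and wholly above 1 for 2 of the 10 upstream and retinoic acid genes. Among the 27 homeobox genes it did so for 4 and 9, against 35.4% and 30% of protein-coding genes.

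**Figure D5:**
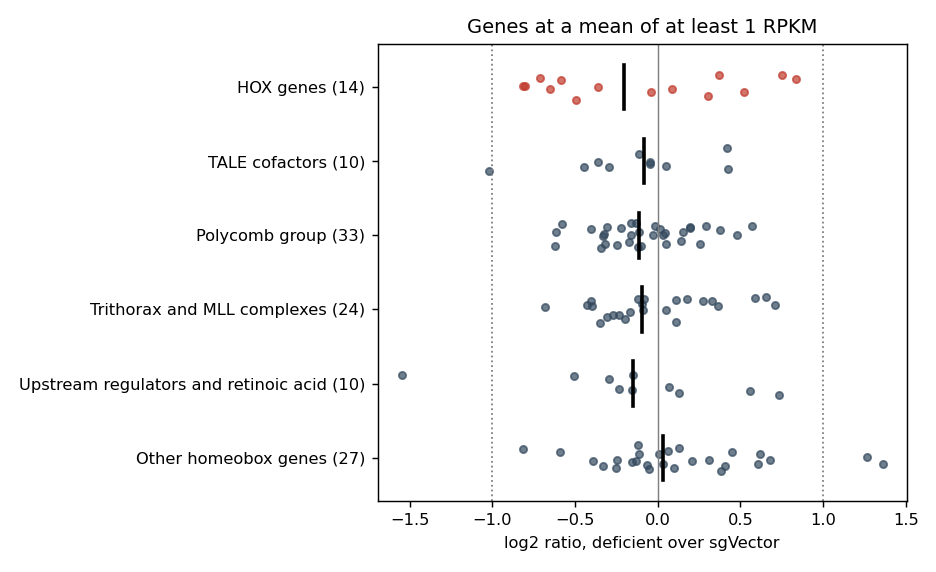
Log2 ratios, deficient over sgVector, of the HOX genes and of 5 lists of related genes at a mean of at least 1 RPKM, 1 point per gene, with the number of genes in brackets, the median as a black bar and 2-fold as dotted lines. At this floor and without correction the HOX genes have the lowest median, -0.20, and stay within 2-fold. PBX4, CRABP2, IRX3 and MSX2 lie beyond 2-fold. The HOX median was 0.02 at a floor of 0.5 RPKM and -0.04 after the correction for GC content and length.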

How the data were processed

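RNA of SUM-159 cells was sequenced in 1 library of PD-L1L2-SE deficient cells and 1 library of sgVector cells. Per the submitters' processing notes, the tools named are Subread and featureCounts 1.6.4, and the builds are GRCh37 and hg19. The sources used here do not give the annotation release or the strand setting. Per the file headers, the authors deposited RPKM values beside the position of each exon and the length of each gene. Multiplied by length, every RPKM value (100%) fell within 1e-06 of a whole number of reads once divided by the step of its library.

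Gene types and GC content came from GENCODE release 29, matched by identifier for 93.4% of 60880 rows, and 41 rows that repeat pseudoautosomal genes on chromosome Y were not used. Log2 ratios used a pseudocount of 0.1 RPKM and a floor of 1 RPKM on the mean, and 2-fold was the threshold. Intervals are at 95%, by Clopper-Pearson for ratios and shares. They cover counting error only, as do the floors, because PCR copies without molecular identifiers do not count molecules.

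All members enter the counts and sums, and 1 member and 1 cell marker are not reported by name here. Other members past the floor and members with at least 20 reads in 1 library are given with their values, and of each related list the genes past 2-fold that had 50 reads or more in the 2 libraries combined, or else the highest and lowest. The members, the lists and the alternatives were chosen with earlier results of these data known. Alternatives were other pseudocounts, floors, thresholds and scalings, a lowess correction (share 0.3) on GC content and length, and sums without the leading member or without members that share exons. Counts by interval, levels per unshared base and the posterior sum without HOXC10 were added after seeing the data. The pairs of genes and clusters compared as ratios of the ratios were not planned beforehand either. The steps were tested on simulated data. Tables were handled with pandas 2.3.3 and numpy 2.4.6 in Python 3.11.15, intervals came from scipy 1.17.1, the correction from statsmodels 0.14.6 and plots from matplotlib 3.10.9.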

Additional observations from a re-analysis of the deposited data

How the results depend on the processing

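No paired analysis was possible because each group had 1 library. For the same reason leaving out a replicate was not possible. No HOX gene past the floor reached 2-fold under the pseudocounts and scalings tried, with the exception of the correction for GC content and length, under which 1 member, HOXD8, was at least 2-fold higher. At a threshold of 1.5-fold, 2 members were higher and 4 lower. The median log2 ratio of the members was -0.65 at a floor of 5 RPKM, 0.02 at 0.5 RPKM and 0 without one. After the correction for GC content and length it was -0.04. The log2 ratio of summed HOXA reads was 0.28, and 0.089 over members that share under 10% of their exon bases with another row. That of HOXB was -1.89 without HOXB7 and that of HOXD was 1.40 without HOXD8, in both cases from a few reads. That of paralogue groups 9 to 13 was -0.46, and -0.18 without HOXC10. Members with an interval wholly above 1 numbered 2, but 4 under TPM, TMM and upper-quartile scaling, which added HOXA3 and HOXA9, and 5 under the correction for GC content and length, which added HOXA5 as well. HOXC9 was no longer wholly below 1 under that correction. Of 126 values of single members under the alternatives, 125 stayed within the counting interval. The other was HOXC10, at -0.40 under the correction for GC content and length, and the cause was not tested. HOXC13 changed sign in 4, and no other member did. Depth limits the 25 members below the floor, which held 136 reads in deficient cells and 117 in sgVector cells.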

Other observations

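The 3 RNA genes below, inside the HOX clusters, stood out when the cluster spans were read through, and they were chosen after their values were seen. HOXA11-AS, the antisense RNA of HOXA11, had 3 reads in deficient cells and 21 in sgVector cells, a ratio of 0.141 (0.0270 to 0.473), while HOXA11 had 0 reads in deficient cells and 2 in sgVector cells. A HOXC-cluster lincRNA known only as ENSG00000260597 had 53 reads in deficient cells and 18 in sgVector cells, a ratio of 2.91 (1.68 to 5.28), whereas the summed HOXC genes had a ratio of 0.667. HOXC-AS1 had 98 reads in deficient cells and 119 in sgVector cells.

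Outside the clusters, the homeobox gene IRX2 stood at 965 RPKM in deficient cells and 1074 RPKM in sgVector cells, far above HOXC10, the highest HOX gene.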
